A study of Rattus norvegicus with 8 samples.

Results

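The genes described here carry glucose into muscle fibres, break it down by glycolysis and store or release it as glycogen. They were 32 symbols chosen by name, and all 32 were found among the 17055 rows of a count table of rat diaphragm, the main muscle of inspiration. By role they comprised 2 glucose carriers, 15 enzymes of glycolysis and lactate formation, 4 genes of side steps of glycolysis, 6 genes of glycogen breakdown and 5 of glycogen synthesis. The table held 8 libraries, 1 from each of 8 Sprague-Dawley rats sampled 16 weeks after surgery. In the 4 rats of the MI group (replicates 1 to 4) a myocardial infarction had been made by tying off the left anterior descending coronary artery. The 4 Sham rats (replicates 5 to 8) went through the same anaesthesia, ventilation and chest opening without the tie. No sex, age at surgery or infarct size is given. The p-values set the difference between groups against the spread between animals within a group. Beyond 1 library per animal the labels say nothing of how animals were housed or batched. A batch that went along with group could therefore not be told apart from it. The comparison asks which transcripts differ in the breathing muscle long after an infarction.

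A muscle fibre takes up glucose mainly through GLUT4, a carrier that insulin and contraction bring to the cell surface, and traps it inside by phosphorylation. Glycolysis then yields ATP and pyruvate, which is oxidised in mitochondria or turned into lactate, and glycogen serves as the fibre's own glucose store. Fast fibres are rich in glycolytic enzymes and glycogen phosphorylase, while slow fibres rely more on oxidation, and the diaphragm holds both kinds.

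Libraries held 7941402 (Sham replicate 8) to 24967251 (Sham replicate 7) counts. Levels are given as CPM, counts scaled to a common library size by TMM, which corrects totals for a few very abundant genes. Skeletal muscle genes were abundant in every library, with Ckm, the muscle creatine kinase, at 25492 to 39885 CPM in MI and 30202 to 37393 in Sham. Of 11 marker lists for fibre types and other cells, none had summed levels without overlap between the groups. Red cell markers came closest: 8 of 9 listed genes were in the table, none of them at 0 in every library, and they summed to 369 to 806 CPM in MI and 236 to 378 in Sham. All 6 red cell genes with enough counts had higher levels in MI, with log2 fold changes of 1.02 to 1.70. Their edgeR quasi-likelihood adjusted p was 0.601 each, while DESeq2 called 5 of the 6 (Hba1, Hba2, Hbb, Hbb-b1 and Alas2), with adjusted p from 0.0017 to 0.0199. Schwann cell markers summed to 129 to 169 CPM in MI and 99.4 to 136.5 in Sham. The part of blood or nerve RNA in the members' levels was not tested. In bulk tissue, fewer cells of a type and less RNA per cell cannot be told apart.

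No member passed the edgeR quasi-likelihood test at an adjusted p under 0.05 (Benjamini-Hochberg over the 10522 genes tested), where the background was also 0%. Of the 32 members 31 had enough counts to be tested, and Phkg2 had none in any library. At an unadjusted p under 0.05 the members were 4 of 31 (12.9%), against 8.14% of all genes tested. Pfkfb3 was higher in MI (1 of 31, beside 3.67% of all genes) and Slc2a4, Pkm and Pygb were lower (3 of 31, beside 4.47%). The groups did not overlap for 2 of 31 members, Pfkfb3 and Slc2a4 (6.45%), against 4.55% of all genes. Pfkfb3 lay above (background 2.09%) and Slc2a4 below (2.46%). These shares lie near the background. DESeq2 and limma-voom on the same counts likewise called 0 members, and at an unadjusted p under 0.05 each gave 3.

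Log2 fold changes here are MI over Sham from edgeR, given with their standard error, and those in parentheses after levels are the same quantity. Over the members they ran from -0.42 to 0.82 with a median of -0.072, beside -0.0070 over all genes tested. Below 0 lay 20 of 31, or 64.5%, against 51.3% of all genes. This count rested on single animals: without MI replicate 4 or without Sham replicate 6 it was 15, with the median at 0.0035 and 0.016. For 25 of 31 members the 95% interval of the fold change lay within 1.5-fold in either direction, and for 30 of 31 within 2-fold, the exception being Pfkfb3. The 6 whose intervals reached past 1.5-fold were Pfkfb3, Pygb, Hk1, Slc2a1, Phka1 and Fbp2.

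**Figure D1:**
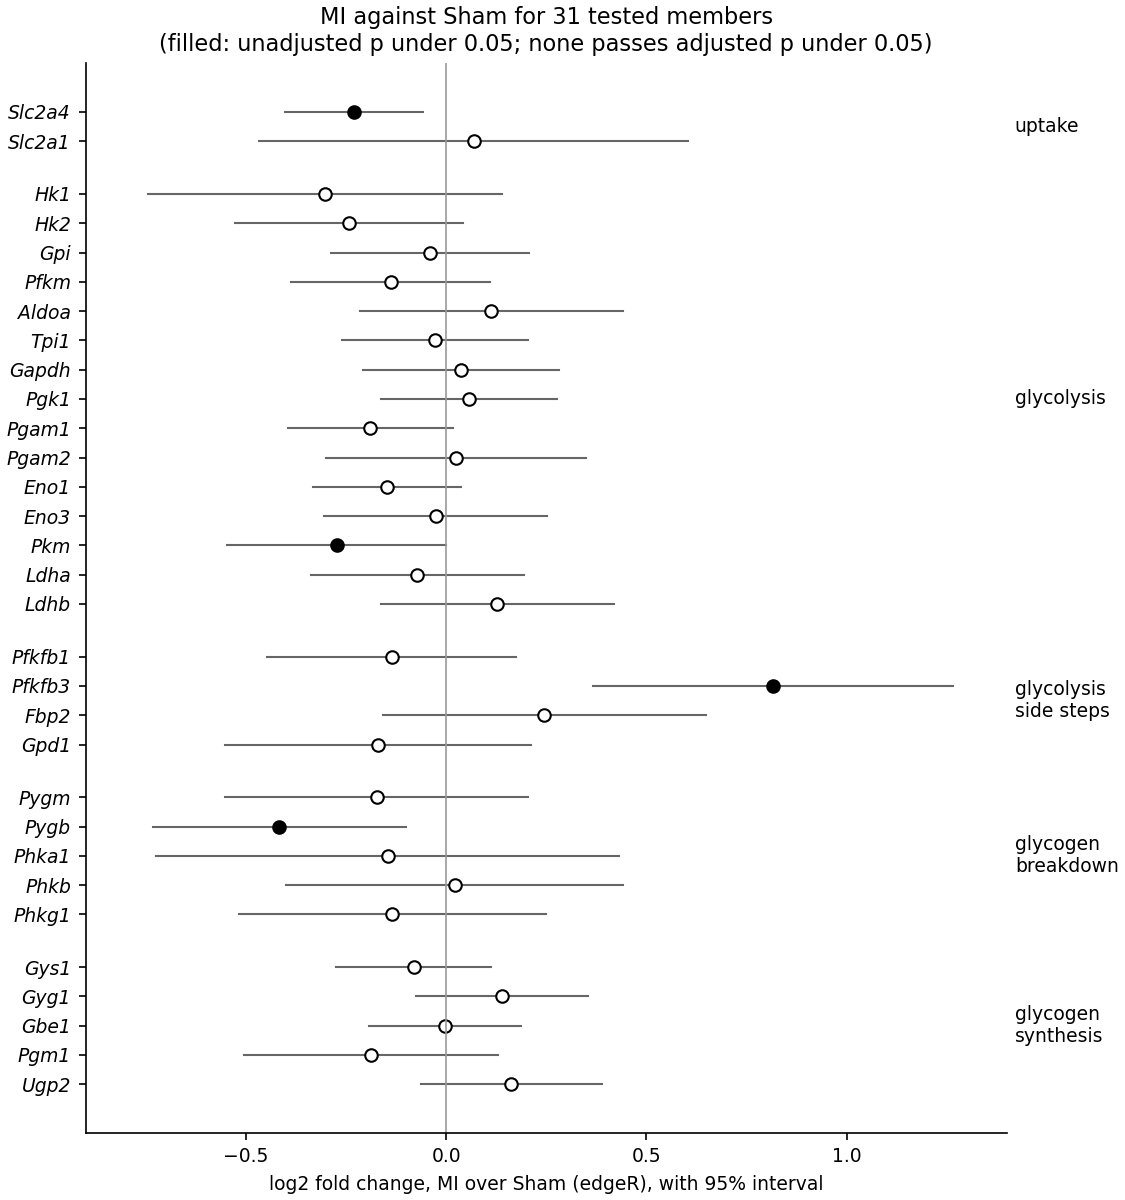
Log2 fold change of MI over Sham for the 31 tested members, grouped by role, from edgeR (points) with 95% intervals (lines). Filled points are the 4 members with an unadjusted p under 0.05. Most points lie within 0.3 of 0, and Pfkfb3 at 0.82 stands apart on the right.

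Of the 2 glucose carriers, the muscle one was lower in every MI animal than in any Sham animal. Slc2a4 encodes GLUT4, the carrier that responds to insulin. It was at 568, 609, 642 and 528 CPM in MI replicates 1 to 4 and at 690.5, 675, 708 and 679.5 in Sham replicates 5 to 8. All 4 MI animals lay below all 4 Sham animals, and the Sham animals lay close together, with a coefficient of variation of 2.16% against 8.39% in MI. Means (± SD, n = 4) were 587 ± 49.2 CPM for MI and 688 ± 14.9 for Sham, an edgeR log2 fold change of -0.23 ± 0.078 (SE) with an adjusted p of 0.601. The animal numbers in the labels fall in 2 ranges, one holding MI replicates 1 and 2 with Sham replicate 5, and the log2 ratio of group means was -0.23 in both ranges. With single libraries left out the log2 fold change ran from -0.27 to -0.18.

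Slc2a1 encodes GLUT1, the carrier of basal uptake, also abundant in perineurium and some endothelium. It gave few reads, at 2.94, 5.19, 2.96 and 3.92 CPM in MI and 4.24, 4.18, 2.78 and 3.20 in Sham, with the groups interleaved. The log2 fold change was 0.069 ± 0.24 (adjusted p 0.948 with edgeR), and its sign turned when MI replicate 2 or Sham replicate 7 was left out, and when the fit held a term for the range of animal numbers.

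Among the regulators and side steps of glycolysis, Pfkfb3 had the largest fold change of the 31 tested members. It encodes a bifunctional enzyme, chiefly a kinase, that makes the fructose bisphosphate activating phosphofructokinase, and it is known to be induced by hypoxia and inflammatory signals. It was at 10.7, 7.64, 5.58 and 8.29 CPM in MI and 5.12, 4.76, 3.78 and 4.80 in Sham, from 160, 125, 66 and 72 reads and 70, 74, 98 and 39 reads. The groups did not overlap, but MI replicate 3 lay close to Sham replicate 5, and MI replicate 1 was the highest. Means were 8.05 ± 2.10 CPM in MI against 4.61 ± 0.580 in Sham, a log2 fold change of 0.82 ± 0.20 with a 95% interval of 0.37 to 1.27. The adjusted p was 0.601 with edgeR and 0.189 with DESeq2. Within the 2 ranges of animal numbers the log2 ratio of means was 0.84 and 0.64, and leaving out single libraries gave 0.64 to 0.96.

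Pfkfb3 is a known hypoxia target, so the 250 bases upstream of its annotated start are shown with those of Pkm and Pygb, which also had an unadjusted p under 0.05, and of Pygm, the muscle counterpart of Pygb. Sequences are RefSeq's on the GRCr8 assembly, to which 28 of the 32 symbols matched. Slc2a4, which also had such a p, was among those without a match, so it has no window here. Capitals mark ACGTG, a form of the core letters bound by hypoxia-inducible factors, on either strand, where it appears as CACGT. Other forms of the core, such as GCGTG, were not searched or marked.
Pfkfb3, chr17:71944683-71944932, plus strand: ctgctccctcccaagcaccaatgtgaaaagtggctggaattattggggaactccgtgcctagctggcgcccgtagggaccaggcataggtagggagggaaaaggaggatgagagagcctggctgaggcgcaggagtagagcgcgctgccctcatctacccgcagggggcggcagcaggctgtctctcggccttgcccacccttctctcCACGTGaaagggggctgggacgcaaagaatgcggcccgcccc
Pkm, chr8:68953385-68953634, plus strand: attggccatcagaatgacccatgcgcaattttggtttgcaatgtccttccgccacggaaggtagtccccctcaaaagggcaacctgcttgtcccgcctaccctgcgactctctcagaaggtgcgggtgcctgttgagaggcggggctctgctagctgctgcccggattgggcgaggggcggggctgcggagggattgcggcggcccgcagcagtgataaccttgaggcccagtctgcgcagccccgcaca
Pygb, chr3:160071891-160072140, plus strand: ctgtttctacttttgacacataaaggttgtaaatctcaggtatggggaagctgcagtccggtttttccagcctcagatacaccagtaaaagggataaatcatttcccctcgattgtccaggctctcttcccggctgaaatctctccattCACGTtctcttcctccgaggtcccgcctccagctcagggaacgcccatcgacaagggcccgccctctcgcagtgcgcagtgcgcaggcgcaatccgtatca
Pygm, chr1:213119555-213119804, plus strand: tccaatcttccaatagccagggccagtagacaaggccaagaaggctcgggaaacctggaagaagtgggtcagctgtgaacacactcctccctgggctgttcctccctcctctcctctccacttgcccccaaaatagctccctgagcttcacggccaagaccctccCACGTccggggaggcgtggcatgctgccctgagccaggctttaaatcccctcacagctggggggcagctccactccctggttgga
In Pfkfb3 the marked letters form CACGTG, 1 palindrome that begins 42 bases before the start and holds ACGTG on both strands. The Pkm window holds 0 matches. Pygb holds 1 match that begins 101 bases before its start and Pygm 1 that begins 85 bases before. ACGTG on either strand was found upstream of 15 of the 28 matched members, among them Aldoa, Gapdh, Ldha, Pfkm, Hk1 and Slc2a1. Counted over start sites, of which a gene can have several, these were 15 of 33 (45.5%), against 22.2% of 8232 start sites of genes tested here and 16.6% of all 33469. CACGTG itself, the form in Pfkfb3, lay in 9.09% of the members' windows and 7.92% of those of tested genes. The E-box form CANNTG, which includes CACGTG, lay in 48.5% of the members' windows and 56.2% of those of tested genes. None of these shares was tested. These are matches of letters only, and no binding was measured in these libraries.

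Pfkfb1, the liver and muscle form of the same enzyme, gave far more reads, at 199, 204, 203 and 201 CPM in MI and 239.9, 211, 276 and 158 in Sham. The MI animals were nearly alike, with a coefficient of variation of 1.02%, and all lay inside the Sham range, where it was 22.5%. The log2 fold change was -0.14 ± 0.14, with -0.018 without Sham replicate 7 and -0.27 without Sham replicate 8. The 2 remaining genes of the side steps overlapped between the groups as well. Fbp2, the muscle fructose bisphosphatase that runs the phosphofructokinase step backwards, was at 77.0, 55.8, 105 and 86.2 CPM in MI and 77.2, 76.8, 58.4 and 60.4 in Sham, with a log2 fold change of 0.25 ± 0.18 (0.10 without MI replicate 3 and 0.39 without MI replicate 2). Gpd1, which links glycolysis to the glycerol phosphate shuttle and lipid synthesis and is abundant in adipocytes, was at 404, 391, 616 and 349 CPM in MI and 477, 541, 546 and 417 in Sham (-0.17 ± 0.17, or -0.37 without MI replicate 3 and -0.074 without MI replicate 4). MI replicate 3 was highest in MI for Fbp2 and Gpd1. The adipocyte marker Adipoq was highest in MI replicate 4, at 100.2 CPM, where Gpd1 was lowest. Within Sham the 2 went together. Adipoq was at 52.0 and 36.4 CPM in replicates 6 and 7, where Gpd1 was high, and at 14.6 in replicate 8, where Gpd1 was lowest. Adipoq is 1 of 7 adipocyte markers. Their sum was 253.8, 248.5, 249.2 and 177.4 CPM in Sham replicates 5 to 8, highest in replicate 5, where Gpd1 was not high. The part of adipocyte RNA in the Gpd1 level was not tested. None of these 3 genes had an unadjusted p under 0.05 with all 8 libraries. Each had one in edgeR when a certain single animal was left out, but that fit is picked from 8 and is no support for a difference. Hk2, Pgam1 and Eno1 of the glycolytic enzymes also had one in such fits.

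**Figure D2:**
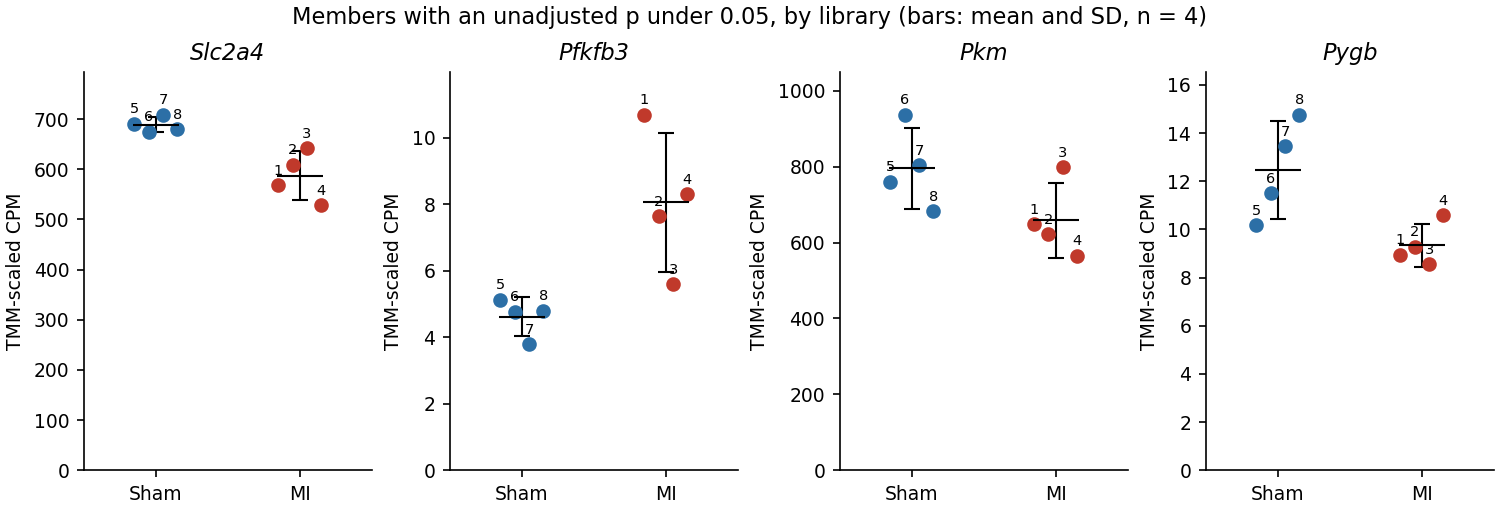
TMM-scaled CPM of Slc2a4, Pfkfb3, Pkm and Pygb in each library (points, numbered by replicate), with group mean and SD (bars, n = 4). Slc2a4 and Pfkfb3 do not overlap between groups, while for Pkm and Pygb at least 1 MI animal lies inside the Sham range.

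The 15 enzymes from hexokinase to lactate dehydrogenase summed to 41403, 34794, 45845 and 37789.8 CPM in MI and 39952, 43604, 36756 and 35099 in Sham. MI replicate 3 was the highest of all and MI replicate 2 the lowest, so the MI animals spanned the whole Sham range. The means, 39958 ± 4765 and 38853 ± 3754 (SD, n = 4 each), lay closer together than the SD of either group. All 32 members together took 4.76% to 5.80% of the reads of a library, and Aldoa, Eno3, Pygm, Gapdh and Ldhb supplied 71.9% to 75.0% of these. Of the 15 enzymes, 10 had a log2 fold change below 0, 1 had an unadjusted p under 0.05, and 0 passed after adjustment.

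Pkm, pyruvate kinase, which makes pyruvate in the last step, had that p. It was at 648, 621, 799 and 565 CPM in MI and 760.1, 937, 804 and 682 in Sham. MI replicate 3 lay above Sham replicates 5 and 8, and the other MI animals lay below all Sham animals. The log2 fold change was -0.27 ± 0.12 (edgeR unadjusted p 0.0497, adjusted 0.608). With single libraries left out it ran from -0.38 (without MI replicate 3) to -0.18 (without Sham replicate 6). Within the 2 ranges of animal numbers the log2 ratio of means was -0.26 and -0.24.

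The hexokinases and phosphofructokinase had log2 fold changes below 0. Hk2, the insulin-responsive hexokinase of muscle, was at 34.1, 43.3, 41.5 and 32.3 CPM in MI and 42.2, 47.8, 37.6 and 51.8 in Sham (-0.24 ± 0.13). Hk1, the hexokinase of most tissues, was at 3.94, 7.58, 7.61 and 6.11 CPM in MI and 7.02, 7.65, 8.40 and 7.99 in Sham (-0.30 ± 0.20), with MI replicates 1 and 4 below every Sham animal and MI replicate 1 the lowest. The log2 fold change of Hk1 was -0.13 without MI replicate 1 and -0.42 without MI replicate 2. Pfkm, the muscle phosphofructokinase that commits sugar to glycolysis, was at 1286, 1175, 1422 and 1065 CPM in MI and 1366, 1562, 1348 and 1168 in Sham (-0.14 ± 0.11, or -0.21 without MI replicate 3 and -0.059 without Sham replicate 6). In each of these 3 genes the groups overlapped.

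In the middle of the pathway, and for Gpi, which acts between hexokinase and phosphofructokinase, the log2 fold changes lay near 0 and the groups overlapped. Aldolase A (Aldoa), which splits the sugar bisphosphate, was at 13795, 12194, 17753 and 13516 CPM in MI and 13403, 16193, 12889 and 10472 in Sham (0.11 ± 0.15). Gapdh, the dehydrogenase often used as a reference gene, was at 5246, 3874, 5441 and 4829.9 CPM in MI and 4671, 5105, 4710.4 and 4413 in Sham (0.037 ± 0.11). Its 95% interval was -0.21 to 0.28, and MI replicate 2 had the lowest level of the 8. Phosphoglycerate kinase Pgk1, an ATP-making step, had 0.057 ± 0.10, triosephosphate isomerase Tpi1 -0.028 ± 0.11 and glucose phosphate isomerase Gpi -0.040 ± 0.11. Each of these 5 log2 fold changes turned sign in at least 1 of the 8 fits that left out an animal. Gapdh, Tpi1, Pgk1, Pgam1, Eno1, Ldha and Aldoa have processed pseudogenes in mammals, and how reads with several matches were counted is not stated, so their levels are uncertain to that extent. Whether counting used the strand is not given either, and reads from overlapping genes cannot then be told apart.

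Phosphoglycerate mutase and enolase, the next steps, each have a widely expressed and a muscle form. Pgam1, the general phosphoglycerate mutase, was at 77.5, 77.7, 62.2 and 67.4 CPM in MI and 76.0, 77.7, 84.2 and 87.2 in Sham (-0.19 ± 0.093), with MI replicates 3 and 4 below every Sham animal. Eno1, the general enolase, was at 105, 127, 117 and 117 CPM in MI and 118, 127, 131 and 141 in Sham (-0.15 ± 0.084), and 3 of 4 MI animals lay below the lowest Sham animal. Neither passed (adjusted p 0.626 and 0.646 with edgeR). The muscle forms Pgam2 (0.025 ± 0.15) and Eno3 (-0.026 ± 0.13) had fold changes near 0 whose sign depended on single animals. Their levels ran from 944 to 1522 CPM in MI and 1084 to 1398 in Sham for Pgam2, and from 7711 to 10538 and 7883 to 10469 for Eno3.

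The lactate dehydrogenase subunits stood at opposite ends in the same 2 animals. Ldha, the subunit that favours lactate formation and is abundant in fast muscle, was at 1524, 1233, 1579 and 1211 CPM in MI and 1512, 1699, 1339 and 1281 in Sham (-0.072 ± 0.12). Ldhb, the subunit of heart and oxidative muscle, was at 4848, 4529, 3945 and 5074 CPM in MI and 4851, 3273, 4002 and 4716 in Sham (0.13 ± 0.13, or 0.20 without MI replicate 3 and 0.030 without Sham replicate 6). Sham replicate 6 had the most Ldha and the least Ldhb of all 8 animals, and MI replicate 3 had the most Ldha and the least Ldhb within MI.

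Of the 6 genes of glycogen breakdown, 1 lay above 0, 4 below and 1 was not detected. Pygm, the phosphorylase that releases glucose units from muscle glycogen, was at 5984, 5482, 7997 and 5039 CPM in MI and 6506, 8883, 6617 and 5628 in Sham. Sham replicate 6 and MI replicate 3 were the highest of their groups, and the groups overlapped. The log2 fold change was -0.17 ± 0.17 (adjusted p 0.775 with edgeR), or -0.32 without MI replicate 3 and -0.022 without Sham replicate 6. Pygb, the phosphorylase first known from brain, gave far fewer reads, at 8.95, 9.29, 8.55 and 10.6 CPM in MI and 10.2, 11.5, 13.5 and 14.8 in Sham. Only MI replicate 4 reached into the Sham range. The log2 fold change was -0.42 ± 0.14 with an interval of -0.73 to -0.10 (unadjusted p 0.0143, adjusted 0.601 with edgeR). Within the 2 ranges of animal numbers the log2 ratio of means was -0.16 and -0.47.

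Phosphorylase kinase switches glycogen phosphorylase on in response to calcium and adrenaline. Its muscle regulatory subunit Phka1 was at 158, 199, 220.2 and 132 CPM in MI and 175, 245, 245 and 118 in Sham (-0.15 ± 0.25, or -0.32 without Sham replicate 8 and -0.013 without Sham replicate 6). The beta subunit Phkb was at 142 to 224 CPM in MI and 128 to 223 in Sham (0.021 ± 0.19), and the muscle catalytic subunit Phkg1 at 60.3 to 108 and 81.0 to 117 (-0.13 ± 0.17). The sign for Phkb and Phkg1 depended on single animals. All 3 subunits were highest in Sham replicate 6 and MI replicate 3 and lowest in Sham replicate 8 and MI replicate 4, the shallowest library of each group. Phkg2, the catalytic subunit of liver, is listed at 0 in all 8 libraries. With the annotation not known, no level can be read from that 0.

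The 5 genes of glycogen synthesis lay on both sides of 0, 2 above and 3 below. Gys1, the muscle glycogen synthase that extends the chains, was at 258, 323, 307 and 263 CPM in MI and 289, 313, 308 and 309 in Sham (-0.081 ± 0.087). MI replicates 1 and 4 lay below all Sham animals, and MI replicate 2 above them all. Gyg1, the glycogenin that primes a new particle, was at 845, 906, 779.9 and 958 CPM in MI and 904, 806, 715 and 743 in Sham (0.14 ± 0.10). In Gyg1 the groups overlapped, with MI replicate 4 highest. Ugp2, which makes the activated glucose for synthesis, was at 1421, 1515, 1415 and 1818 CPM in MI and 1475, 1392, 1429.8 and 1215 in Sham (0.16 ± 0.10). Ugp2 too was highest in MI replicate 4, and its log2 fold change was 0.074 without that animal and 0.21 without MI replicate 3. Pgm1, the mutase that joins glycogen to glycolysis, was at 1509.9, 1536, 1962 and 1421 CPM in MI and 1868, 2248, 1783 and 1427 in Sham (-0.19 ± 0.14, or -0.29 without MI replicate 3 and -0.068 without Sham replicate 6). Sham replicate 6 was again highest for Pgm1. Gbe1, the branching enzyme, had a log2 fold change of -0.0033 ± 0.086, with an interval of -0.19 to 0.19, and its sign depended on the setting. None of the 5 had an unadjusted p under 0.05, and together they came to 4749 ± 199 CPM (SD, n = 4) for MI and 4747 ± 469.8 for Sham.

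**Figure D3:**
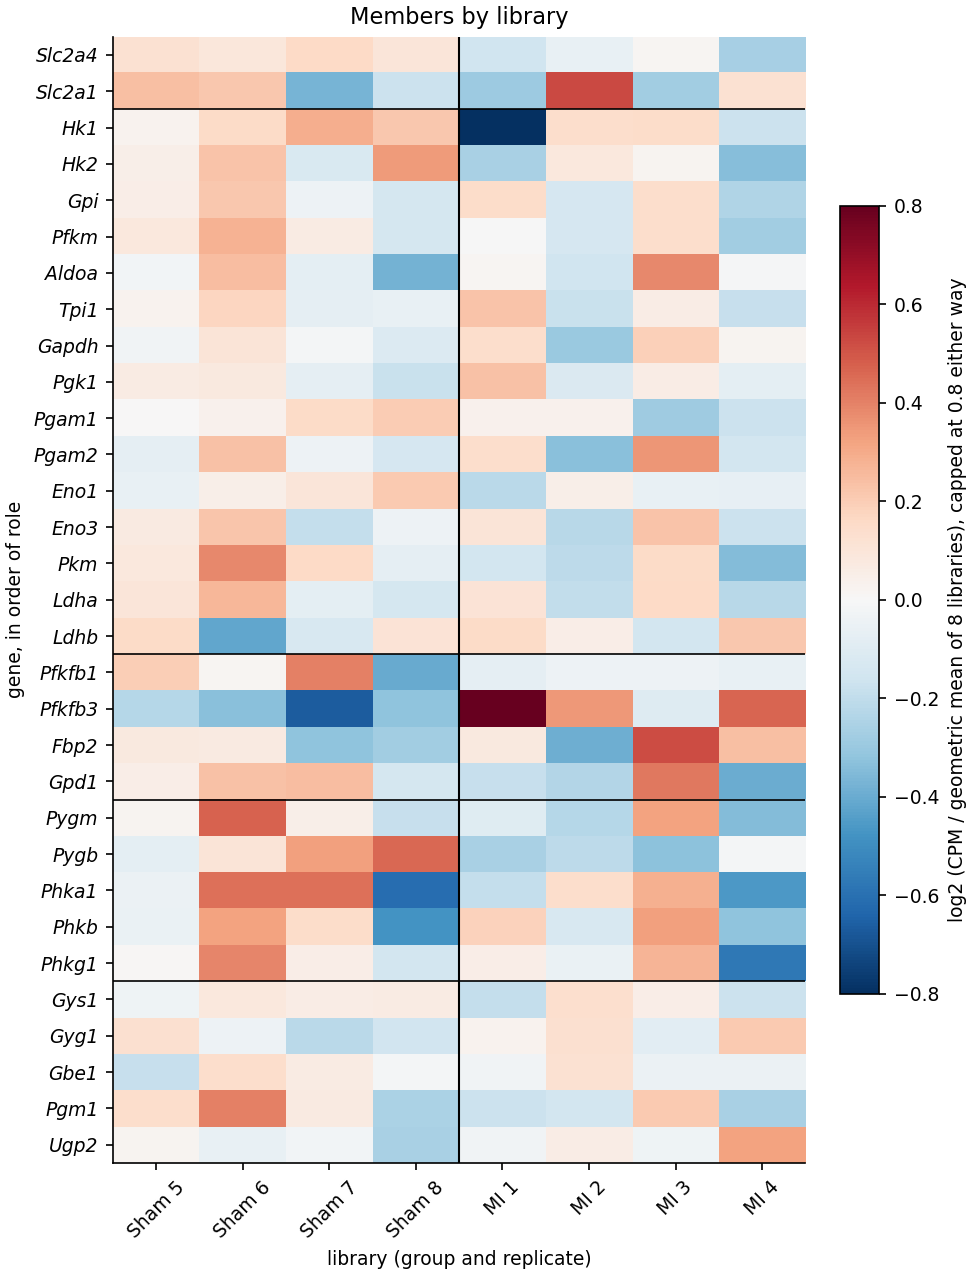
Level of each tested member (rows, in order of role) in each library (columns, Sham then MI) as the log2 ratio to the gene's geometric mean over the 8 libraries, with colours capped at 0.8 either way. Sham replicate 6 and MI replicate 3 are red over most glycolytic and glycogen breakdown genes, and Ldhb is blue there. Slc2a4 and Pfkfb3 do not overlap between the groups.

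Differences between animals of the same group were shared by many members. Of the tested members 12 were highest in MI replicate 3 and in Sham replicate 6, a share of 38.7% against 6.35% of all genes tested. They were Aldoa, Eno3, Gapdh, Ldha, Pfkm, Pgam2, Pgm1, Phka1, Phkb, Phkg1, Pkm and Pygm, and they include the muscle forms of mutase, enolase, phosphofructokinase and phosphorylase. Singly, MI replicate 3 was the highest MI library for 16 of 31 members (51.6%, beside 21.9% of all genes) and Sham replicate 6 the highest Sham library for 17 (54.8%, beside 23.5%). MI replicate 4 and Sham replicate 8 were lowest for 13 (41.9%, beside 25.9%) and 16 (51.6%, beside 26.4%), and these are the 2 shallowest libraries, at 8566143 and 7941402 counts. This order was noticed in the data and carries no test. With library totals in place of TMM scaling, a setting chosen after seeing the data, 9 members were highest in both animals. The share of all genes at that setting was not computed. MI replicate 3 and Sham replicate 6 had the lowest TMM factors of all libraries, 0.953 and 0.955, so TMM scaling raises their levels. The part of depth in this order was not tested.

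Summed fast-fibre markers and summed general muscle markers both peaked in the same 2 animals, though not every marker did. The 5 general muscle markers present summed to 83497, 79149, 101783 and 80887 CPM in MI and 89007, 101438, 82914 and 91252.5 in Sham. Of these, Mb was highest in MI replicate 2 and Sham replicate 7. The 11 fast-fibre markers summed to 62839, 47733, 75953 and 47308 CPM in MI and 55802, 78909.8, 63597 and 52109 in Sham. MI replicate 3 and Sham replicate 6 were highest in both sums. Of the 11, Sham replicate 6 was the highest Sham animal for 10 and MI replicate 3 the highest MI animal for 6, and 6 were highest in both. Myh4, Tnni2, Tnnc2 and Pvalb peaked in MI replicate 1 within MI. Myh2, the IIA chain, was highest in MI replicate 2 and lowest among Sham animals in Sham replicate 6. Actn3, the alpha-actinin of fast fibres, was at 1508, 1077, 3377 and 1069 CPM in MI and 1991, 3708, 2374 and 1665 in Sham, and Myh1, the IIX myosin heavy chain, at 10292, 9125, 16211 and 7387 and 9634, 18379.5, 13004 and 9414. The 6 glycogen breakdown genes summed to 6447, 5939, 8558 and 5384 CPM in MI and 6953, 9479.6, 7166 and 5969.7 in Sham, with the same 2 animals highest. The 9 slow-fibre markers summed to 29442, 33365, 30716 and 31427 CPM in MI and 35132, 28845, 28329.9 and 36382 in Sham, where Sham replicates 6 and 7 were low and replicates 5 and 8 high. Myh4, the IIB chain, varied widely in both groups, at 3698, 21.1, 1017 and 11.4 CPM in MI and 196, 2082, 1434 and 138 in Sham. Only MI replicate 3 exceeded MI replicate 1 in summed glycolytic enzymes within MI. The part of fibre makeup in the members' levels was not tested.

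**Figure D4:**
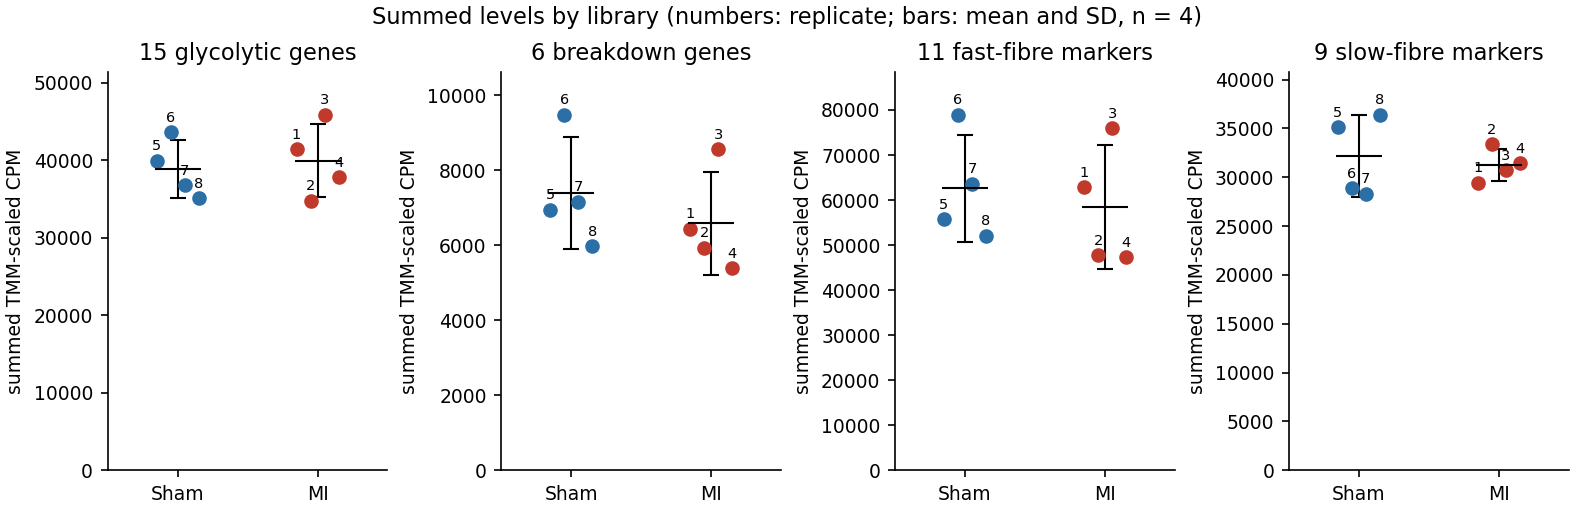
Summed TMM-scaled CPM per library (points, numbered by replicate) for the 15 glycolytic genes, the 6 glycogen breakdown genes and the fast-fibre and slow-fibre markers, with group mean and SD (bars, n = 4). MI replicate 3 and Sham replicate 6 are highest in the panels for glycolytic, breakdown and fast-fibre genes, and the groups overlap in every panel.

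Ratios of 2 isoforms within a library do not depend on how libraries are scaled. Of 8 pairs taken, 7 are given, since Phkg2 has no counts to set against Phkg1. Each is the log2 ratio of counts (0.5 added to each), not corrected for gene length and compared between animals only, with no test. Eno3 over Eno1 was 6.26 ± 0.29 in MI and 6.14 ± 0.24 in Sham, and Pgam2 over Pgam1 4.07 ± 0.42 in MI and 3.87 ± 0.23 in Sham (SD, n = 4 each). Pygm over Pygb was 9.33 ± 0.41 in MI and 9.10 ± 0.44 in Sham. For these 3 pairs the muscle form took a slightly larger part in MI, and the differences were smaller than the SD of either group. Ldha over Ldhb was -1.73 ± 0.32 in MI and -1.52 ± 0.40 in Sham, with Sham replicate 6 at -0.95 and every other animal at or below -1.32. Hk2 over Hk1 was 2.61 ± 0.33 in MI and 2.52 ± 0.24 in Sham, and Slc2a4 over Slc2a1 7.31 ± 0.42 in MI and 7.59 ± 0.32 in Sham. Pfkfb1 over Pfkfb3 differed most, at 4.22, 4.73, 5.17 and 4.59 in MI and 5.54, 5.46, 6.18 and 5.02 in Sham. MI replicate 3 overlapped Sham replicate 8, and the other 3 MI animals lay below all Sham animals.

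**Figure D5:**
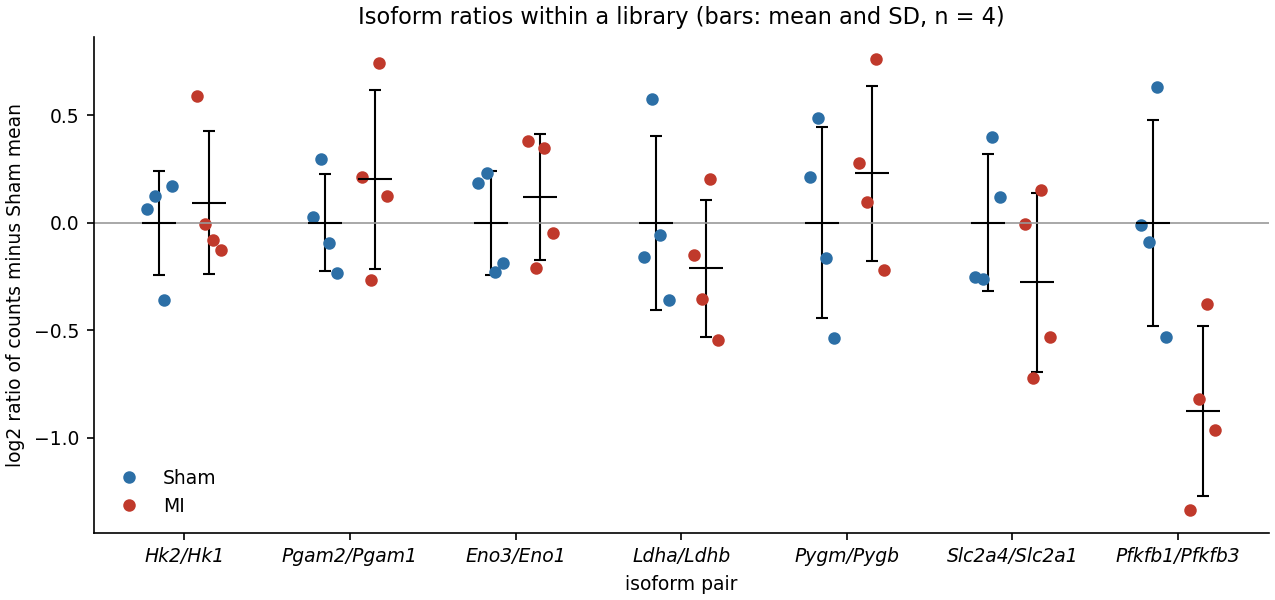
Log2 ratio of the counts of 2 isoforms in each library, minus the Sham mean of that pair, for Sham (blue) and MI (red), with group mean and SD (bars, n = 4). In 6 pairs the groups lie over each other, and for Pfkfb1 over Pfkfb3 the MI mean lies 0.88 below Sham.

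Other genes of glucose use, from 7 lists with 107 symbols, gave no call either. Of the 88 with enough counts, 0 passed in either direction in edgeR, and 4 higher and 5 lower had an unadjusted p under 0.05 (10.2%, against 8.14% of all genes). Their median log2 fold change was -0.016. Among other isoforms of glycolytic and glycogen enzymes 15 were tested, and Pfkfb4, a further kinase of the Pfkfb family, was at 3.47, 6.29, 4.74 and 3.11 CPM in MI and 5.05, 7.33, 10.3 and 4.80 in Sham (-0.65 ± 0.29, or -0.89 without MI replicate 2 and -0.38 without Sham replicate 7). It lay below 0 where Pfkfb3 lay above, and its groups overlapped. Of 7 tested carriers of glucose and lactate none had such a p, and Slc2a3, the GLUT3 gene, is listed at 0 in every library, from which again no level can be read.

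Of 9 further glycogen genes 1 had an unadjusted p under 0.05. Ppp1r3a, the subunit that targets protein phosphatase to muscle glycogen, was at 1083, 899, 932 and 1001 CPM in MI and 902, 911, 715 and 676 in Sham (0.29 ± 0.11). Of 14 genes at the entry of pyruvate into mitochondria, 10 lay above 0 and 4 below (28.6%, against 51.3% of all genes tested). An unadjusted p under 0.05 in edgeR was found for 1 of them (7.14%, against 8.14% of all genes). This was Mpc1, a subunit of the pyruvate carrier. Mpc1 was at 1614, 1616, 1492 and 1682 CPM in MI and 1580.5, 1233, 1364 and 1329 in Sham (0.22 ± 0.091). Both genes overlapped between the groups. Of 18 genes of insulin signalling and GLUT4 traffic, Pik3ca, a catalytic subunit of PI3 kinase, had 0.24 ± 0.095 and Vamp2, a vesicle protein that fuses GLUT4 vesicles with the surface, -0.21 ± 0.094. Of 9 genes of AMP-activated kinase and its activators none had an unadjusted p under 0.05.

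Genes that respond to oxygen or glucose were mixed, with 9 of 16 below 0. Adm, adrenomedullin, which hypoxia induces, was at 8.95, 8.80, 7.19 and 8.06 CPM in MI and 9.51, 10.03, 13.1 and 10.3 in Sham, all MI animals below all Sham animals (-0.39 ± 0.14). Epas1, a hypoxia-inducible factor abundant in endothelium, did not overlap either, at 47.1, 103, 97.2 and 73.3 CPM in MI and 106, 108, 126 and 108 in Sham (-0.48 ± 0.22). Epas1 is named because its groups did not overlap, a choice made after its values were seen, and its unadjusted p was 0.054 in edgeR. Genes without overlap were 2 of 16 in this list (12.5%), against 4.55% of all genes tested. Over all these lists together they were 2 of 88 (2.27%). Bnip3, a mitochondrial protein induced by hypoxia, lay the other way, at 1151 ± 149.7 CPM in MI against 962 ± 108 in Sham (0.26 ± 0.11). Mlxipl, the glucose-sensing factor ChREBP, had -0.40 ± 0.15, and Mef2d, a muscle transcription factor, -0.39 ± 0.17. The edgeR adjusted p was 0.610 for Epas1 and 0.601 for each of the other 4.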

How the data were processed

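Per the labels' protocols, total RNA of whole diaphragm went into SMARTer Ultra Low and KAPA Hyper libraries for Illumina sequencing. The submitters' processing notes name bcl2fastq, STAR 2.5.0a, TopHat2, TopHat and Cufflinks with build rn5. The sources used here do not name the counter, the annotation or the use of strand. The authors deposited 1 table of raw read counts per gene symbol, with 17055 rows, of which 3121 were 0 in all libraries. Every column belonged to a labelled sample (0 without one), and 25 symbols look like spreadsheet dates, none of them a member.

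From these counts, edgeR 4.0.16 (R 4.3.3; TMM scaling, filterByExpr, robust quasi-likelihood F test, two-sided, Benjamini-Hochberg over 10522 genes, threshold 0.05) compared 4 MI with 4 Sham libraries without covariates. The common biological coefficient of variation was 17.3% and the median standard error of a log2 fold change 0.145. No 2 libraries of a group agreed within sampling noise (chi-square per degree of freedom 12.1 to 44.3). Steps were tested on simulated data.

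The members and lists were chosen with earlier results of these data known. Any member may be named, and of each of the other lists up to 4 genes with the smallest unadjusted p under 0.05. Alternatives were RLE size factors, library totals, no low-count filter, DESeq2 1.42.0, limma-voom (limma 3.58.1), a term for the range of the animal number, a prior count of 2 for isoform ratios, and leaving out each library. Promoters are RefSeq's on GRCr8, and since the files use rn5 no other coordinates are given.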

Additional observations from a re-analysis of the deposited data

Results flagged for a closer look

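In groups of 4, an animal was singled out when its gap to the nearest other animal took up more of the group's range than Dixon's 95% critical value allows. Of 86 such groups 3 met this, where chance gives about 1 in 20. Gbe1, the glycogen branching enzyme, was at 477.6 CPM in MI replicate 2, while the other MI animals lay between 425.6 and 430.0. The summed side steps of glycolysis (Pfkfb1, Pfkfb3, Fbp2 and Gpd1) reached 929.5 CPM in MI replicate 3, against 644 to 691 in the other MI animals. The log2 ratio of Hk2 over Hk1 was 3.10 in MI replicate 1 and 2.39 to 2.51 in the other MI animals, and this animal also had the lowest Hk1 level of the 8.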

How the results depend on the processing

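No paired analysis was possible because MI animals are numbered 1 to 4 and Sham animals 5 to 8, so the groups share no replicate number. DESeq2 called 14 genes, 5 of them red cell markers and none a member, where edgeR called 0. With single libraries left out edgeR called 0 to 1 genes, and 514 (without Sham replicate 7) to 1090 genes had an unadjusted p under 0.05, against 856 with all libraries. The uptake sum ratio, MI over Sham, then ran from 0.827 to 0.882. Of 40 named genes 28 kept the sign of their log2 fold change under all 14 alternatives. Slc2a1 was at -0.012 when the fit held a term for the range of animal numbers. Gbe1 was at 0.0024 with RLE, 0.0023 with DESeq2, 0.00046 with limma-voom and 0.012 with the range term. With single libraries left out, the other turns of sign lay in these ranges: Slc2a1 -0.15 to 0.17, Gpi -0.10 to 0.035, Aldoa -0.0030 to 0.23, Tpi1 -0.12 to 0.032, Gapdh -0.018 to 0.13, Pgk1 -0.023 to 0.099, Pgam2 -0.098 to 0.12, Eno3 -0.11 to 0.052, Ldha -0.14 to 0.016, Phkb -0.11 to 0.15, Phkg1 -0.25 to 0.0035 and Gbe1 -0.070 to 0.051. The cause was not tested. Depth limits Slc2a1 most among the tested members, with 26 reads in Sham replicate 8.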
